A study of Mus musculus with 18 samples.

Results

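Expression of 10 genes of osteoclast differentiation and cell fusion was followed in the mouse macrophage line RAW264.7. The genes, Tnfrsf11a, Oscar, Calcr, Nfatc1, Dcstamp, Ocstamp, Atp6v0d2, Ctsk, Acp5 and Mmp9, were chosen by name, with earlier results of these data known. All 10 were found among the 24411 gene symbols of the table. Poly(A) RNA was sequenced from a line made deficient in the histone demethylase gene Kdm7a with CRISPR/Cas9 (KO) and from cells given a control guide RNA (control, labelled wild type). Cells of either genotype were kept for 48 h under M1 conditions (mouse interferon gamma at 2 ng/ml with lipopolysaccharide at 0.1 µg/ml), under M2 conditions (20 ng/ml of mouse IL-4, IL-10 and IL-13 plus 2 ng/ml of human TGF-beta 1) or unstimulated (M0). The 6 groups had 3 libraries each, so every mean ± SD has n = 3. The labels name 1 KO line and do not say whether it was 1 clone, so differences between the lines that do not come from Kdm7a cannot be told apart from effects of its loss. Whether the replicates came from separate cultures is not stated, so p-values rest on a spread between libraries that may be technical. The labels name no RANKL, the cytokine that turns RAW264.7 cells into osteoclasts, in any group.

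Osteoclasts are multinucleated, bone-resorbing cells that form by fusion of precursors of the monocyte and macrophage lineage. RANKL binds the receptor RANK, encoded by Tnfrsf11a, and through TRAF6, NF-kappaB and AP-1 factors induces NFATc1, the transcription factor that directs osteoclast differentiation and turns on genes for fusion, acid secretion and matrix digestion. The membrane proteins DC-STAMP and OC-STAMP, encoded by Dcstamp and Ocstamp, are needed for fusion of osteoclast precursors.

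The libraries were alike within groups (Pearson r across genes 0.994 to 0.997), and 10316 to 10884 genes stood at 1 TPM or more in each. Of the single libraries, KO M2 library 1 moved the split of M2 calls between higher and lower the most: without it, 50.2% of 3771 genes called between genotypes were higher in KO cells, where it was 41.0% of 3570 with it, and 1991 genes in place of 1629 were called for a difference in M2 responses. TPM, a transcript abundance relative to a fixed total, is the deposited unit. It is scaled to transcript length and keeps no depth, so the sequencing depth is unknown. The targeted gene Kdm7a stood at 7.19 to 7.66 TPM in KO and 28.7 to 30.3 TPM in control libraries under M1, at 5.83 to 7.54 TPM in KO and 22.2 to 24.5 TPM in control libraries under M2, and at 3.25 to 3.52 TPM in KO and 10.96 to 11.29 TPM in control libraries without stimulation. Control M2 library 2 held Ptgs2, an M1-induced gene, at 0.201% of its level in control M1 cells, and KO M0 library 3 held Arg1, an M2-induced gene, at 0.130% of its level in KO M2 cells. Traces of that size would carry at most 0.0696 TPM of any of the 10 genes. All 8 macrophage markers were tested, and their summed level was 2671 to 2779 TPM in KO and 3573 to 3706 TPM in control libraries under M1, 3729 to 3945 TPM in KO and 4586 to 4743 TPM in control libraries under M2, and 4306 to 4400 TPM in KO and 5441 to 5598 TPM in control libraries without stimulation. Lyz2, the lysozyme gene, made up most of the difference in the sums under M2 (1034 ± 57.4 TPM in KO and 1980 ± 11.9 TPM in control cells) and without stimulation (2482 ± 14.4 TPM in KO and 3631 ± 90.4 TPM in control cells). The list did not move as one: the means of Cd68, Csf1r, Itgam, Spi1 and Fcgr1 under M2, and that of Csf1r in every condition, were higher in KO than in control cells, though under M2 the libraries were apart for Csf1r and Fcgr1 only. Summed osteoblast and fibroblast markers reached at most 3.15 TPM in any library. Of 3 erythroid markers, the hemoglobin gene Hba-a1, whose reads may be shared with a near-identical copy, differed with genotype without overlap, at 0.43 to 1.83 TPM in KO and 2.62 to 4.64 TPM in control libraries under M1, 0.38 to 0.81 TPM in KO and 1.90 to 2.85 TPM in control libraries under M2, and 0 to 0.21 TPM in KO and 0.24 to 0.61 TPM in control libraries without stimulation. Hbb-bs was listed at 0 in every library. The part of the macrophage and erythroid markers in the results was not tested. In RNA of whole cultures, fewer cells that express a gene and less of its RNA per cell cannot be told apart.

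Genes were tested with limma on log2(TPM + 1) where they reached 1 TPM in at least 3 libraries, which 11548 genes did, with calls made below an adjusted p of 0.05 (Benjamini-Hochberg, over all of them). Of the 10 genes, 6 met this (Dcstamp, Ocstamp, Tnfrsf11a, Nfatc1, Acp5 and Ctsk) and 4 did not. Calcr, which encodes the calcitonin receptor of mature osteoclasts, was listed at 0 in 17 of 18 libraries and reached 0.03 TPM in the other, a KO library under M1. Oscar, which encodes a costimulatory receptor of osteoclast precursors, was listed at 0 in 12 libraries and reached at most 0.06 TPM. Atp6v0d2, which encodes a proton pump subunit with a role in precursor fusion, reached at most 0.28 TPM, with 0, 0.04 and 0.04 TPM in KO and 0.19, 0.13 and 0.08 TPM in control cells under M1. Calcr, Oscar and Atp6v0d2 were thus at or near 0 in each of the 6 groups, while Acp5, described below, stood at 1.04 to 20.9 TPM.

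Mmp9, which encodes the secreted matrix protease gelatinase B, was near 0 outside M1. It stood at 0.10, 0.51 and 0.31 TPM in KO and at 0.58, 0.92 and 0.73 TPM in control cells under M1. All M2 and all unstimulated libraries listed it at 0, except for 0.04 TPM in 1 unstimulated control library. The KO values under M1 all lay below the control values. In a fit with no filter on low values, Mmp9 was called as lower in KO cells under M1 (log2 fold change of TPM + 1 -0.42 ± 0.083 SE, limma adjusted p = 8.03e-04), at under 1 TPM in every library. That fit shares 1 spread over the 6 groups, and Mmp9 was at or near 0 in the M2 and unstimulated ones. Its SE and p therefore do not measure the spread under M1 (SD 0.205 TPM in KO and 0.170 TPM in control cells), and the levels stand as a description.

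**Figure D1:**
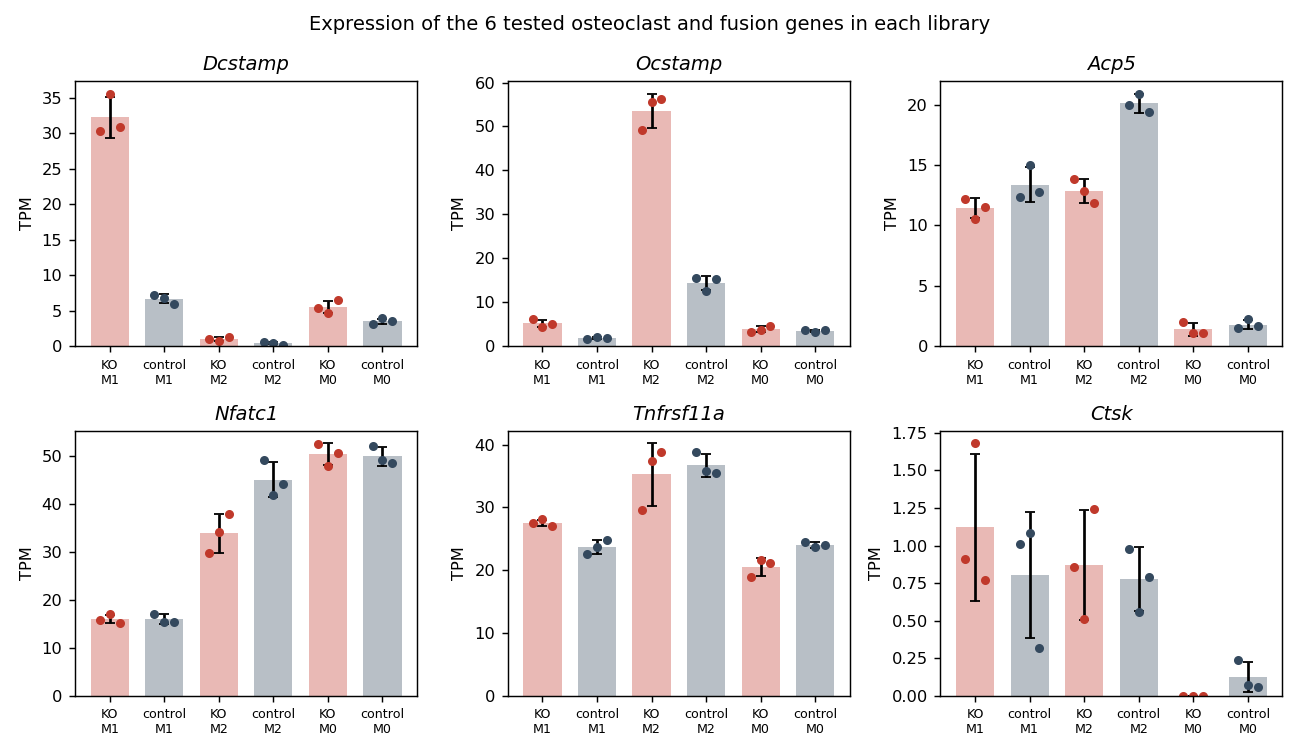
TPM (linear axes from 0) of the 6 tested genes in the 6 groups, with KO in red and control in grey; bars are means, error bars SD and points the 3 libraries. Dcstamp peaked in KO M1 cells (30.4 to 35.6 TPM) and Ocstamp in KO M2 cells (49.2 to 56.2 TPM), while Nfatc1 was low under M1 in KO (15.2 to 16.9 TPM) and control cells (15.3 to 17.1 TPM).

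Of the 6 tested genes, the fusion genes Dcstamp and Ocstamp had the largest differences between genotypes, each under another stimulus. Under M1, Dcstamp stood at 30.4, 35.6 and 30.9 TPM in KO and at 7.16, 6.84 and 5.93 TPM in control cells. All KO libraries lay above every control library. Dcstamp was 4.86-fold higher in KO cells (log2 fold change of TPM + 1 2.12 ± 0.12 SE, limma adjusted p = 1.78e-11), which ranked 12 from the highest of 11548 genes. Without stimulation it was again higher in KO cells with no overlap, at 5.41, 4.69 and 6.47 TPM in KO and 3.16, 3.90 and 3.48 TPM in control cells (log2 fold change 0.53 ± 0.12, limma adjusted p = 0.00285). With a pseudocount of 0.1 TPM that difference was 0.63 and was not called (limma adjusted p = 0.0521). Under M2 the gene was low in either genotype, at 1.03, 0.77 and 1.23 TPM in KO and 0.56, 0.46 and 0.21 TPM in control cells (log2 fold change 0.51 ± 0.12, limma adjusted p = 0.00225). From high to low, Dcstamp levels ran KO M1, control M1, KO M0, control M0, KO M2, control M2. Of these neighbours only control M1 and KO M0 overlapped.

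Ocstamp took a different course. Under M2 it stood at 49.2, 55.5 and 56.2 TPM in KO and at 15.4, 12.6 and 15.3 TPM in control cells, with no overlap. It was thus 3.71-fold higher in KO cells (log2 fold change 1.83 ± 0.11, limma adjusted p = 1.74e-10), which ranked 27 from the highest of all genes tested. Under M1 its level was lower, and the groups were still apart, with 6.08, 4.43 and 5.10 TPM in KO and 1.58, 2.01 and 1.92 TPM in control cells (log2 fold change 1.12 ± 0.11, limma adjusted p = 6.32e-08). Without stimulation the groups overlapped, at 3.28, 3.65 and 4.63 TPM in KO and 3.65, 3.22 and 3.64 TPM in control cells, and the difference was not called (log2 fold change 0.10 ± 0.11, limma adjusted p = 0.591). From high to low, Ocstamp levels ran KO M2, control M2, KO M1, KO M0, control M0, control M1, and the values of KO M0 overlapped those of KO M1 and of control M0.

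Set side by side in TPM, which is scaled to length, the fusion genes changed places between stimuli. Dcstamp exceeded Ocstamp by 4.998-fold to 8.04-fold in KO and 3.09-fold to 4.53-fold in control libraries under M1. Under M2, Ocstamp exceeded Dcstamp by 45.7-fold to 72.1-fold in KO and 27.4-fold to 73.0-fold in control libraries, at Dcstamp levels so low that these ratios are imprecise. Without stimulation the genes were close, with Dcstamp over Ocstamp at 1.28 to 1.65 in KO and 0.866 to 1.21 in control libraries. In GENCODE M21 no other gene overlaps Dcstamp (chr15:39745930-39760938 of GRCm38, plus strand) or Ocstamp (chr2:165393760-165400405, minus strand).

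**Figure D2:**
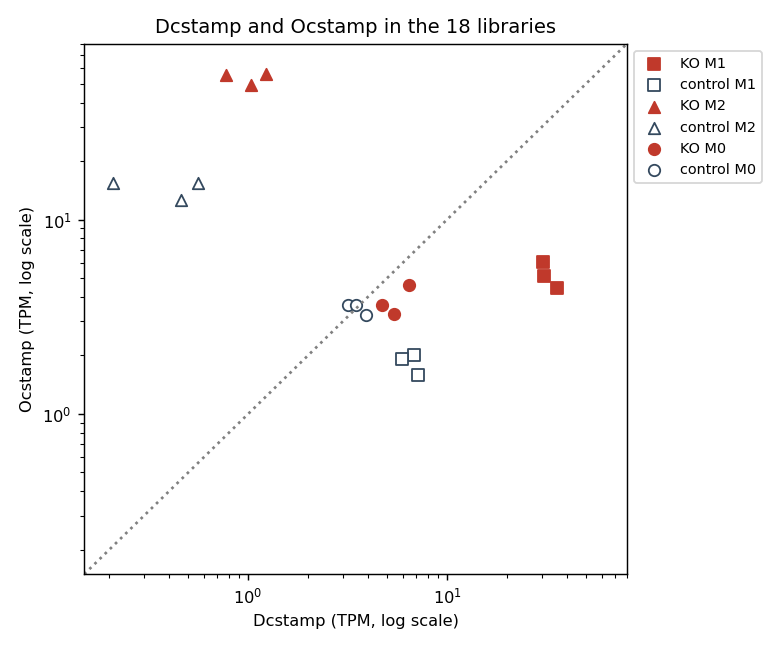
Ocstamp against Dcstamp (TPM, both axes logarithmic) in the 18 libraries, by genotype and condition, with a line at equal levels. Under M1 all libraries hold more Dcstamp than Ocstamp, and under M2 all hold more Ocstamp; under either stimulus all KO libraries hold more of both genes than the control libraries.

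Of the cell type markers, Cd79a, a B lymphocyte gene, moved with Ocstamp under M2. It stood at 20.0, 19.6 and 21.2 TPM in KO and 13.1, 13.2 and 14.9 TPM in control cells under M2, and at 1.65 to 2.54 TPM in all other libraries. It was the 1 of 5 lymphocyte markers that was tested, the list summed to 19.8 to 21.2 TPM in KO and 13.1 to 14.9 TPM in control libraries under M2, and the NK cell gene Ncr1 was listed at 0 in every library. The part of these markers in the Ocstamp result was not tested. The granulocyte gene S100a8 moved against Dcstamp under M1, at 9.93 to 12.6 TPM in KO and 52.9 to 62.0 TPM in control libraries, and was the 1 tested of 3 granulocyte and mast cell markers in the table. Their sums were 10.1 to 12.6 TPM in KO and 52.9 to 62.0 TPM in control libraries under M1, and their part in the results was not tested either.

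Tnfrsf11a, which encodes the RANKL receptor RANK, was expressed in all libraries and differed little between genotypes. It stood at 27.5, 28.1 and 27.1 TPM in KO and 22.6, 23.8 and 24.8 TPM in control cells under M1 (log2 fold change 0.21 ± 0.074, limma adjusted p = 0.0251). Without stimulation the sign was the opposite, with 18.9, 21.6 and 21.1 TPM in KO and 24.5, 23.6 and 23.9 TPM in control cells (log2 fold change -0.22 ± 0.074, limma adjusted p = 0.0452). The groups did not overlap in either condition, but each call was lost without 1 library. The M1 call was lost without library 1 or 2 of either genotype (limma adjusted p = 0.0529 to 0.0965), and the unstimulated one without KO library 1 or 3 or any control library (limma adjusted p = 0.0713 to 0.199). Under M2 the groups overlapped, at 29.6, 37.3 and 38.8 TPM in KO and 38.8, 35.7 and 35.5 TPM in control cells (log2 fold change -0.065 ± 0.074, limma adjusted p = 0.548). Without KO library 1, the lowest, the log2 fold change was 0.053 and still not called (limma adjusted p = 0.509).

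Nfatc1, the gene of the central transcription factor of osteoclast differentiation, was called as lower in KO cells under M2 and not in the other conditions. It stood there at 29.7, 34.0 and 37.8 TPM in KO and at 49.0, 41.8 and 44.1 TPM in control cells, with no overlap (log2 fold change -0.40 ± 0.074, limma adjusted p = 3.25e-04). Without KO library 1, the lowest of its group, the log2 fold change was -0.32 (limma adjusted p = 0.00194). Under M1 the values were 15.8, 16.9 and 15.2 TPM in KO and 17.1, 15.3 and 15.4 TPM in control cells (log2 fold change 0.0029 ± 0.074, limma adjusted p = 0.983). Both M1 groups, which had the highest mean Dcstamp, thus had the lowest Nfatc1 of the 6 groups. In osteoclasts NFATc1 activates Dcstamp, and whether it acts on Dcstamp in these cells was not tested. Without stimulation the values overlapped, at 52.3, 47.8 and 50.6 TPM in KO and 52.0, 49.0 and 48.4 TPM in control cells (log2 fold change 0.012 ± 0.074, limma adjusted p = 0.942). GENCODE M21 places an antisense transcript over Nfatc1, and whether reads were counted by strand is not given in the sources used here, so reads of this pair cannot be told apart.

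Acp5 encodes tartrate-resistant acid phosphatase, the enzyme stained to identify osteoclasts, and Ctsk encodes cathepsin K, their main collagen-degrading protease. The RefSeq promoter windows of GRCm38.p6 (250 bases before to 50 after a start) of these enzyme genes are shown because these are the resorption enzyme genes that reached 1 TPM in at least 3 libraries. Capitals mark a match to a STAT6 motif in the most downstream of the 3 Acp5 windows and to PU.1 motifs in that of Ctsk.
Acp5 (chr9:22130549-22130848, minus strand): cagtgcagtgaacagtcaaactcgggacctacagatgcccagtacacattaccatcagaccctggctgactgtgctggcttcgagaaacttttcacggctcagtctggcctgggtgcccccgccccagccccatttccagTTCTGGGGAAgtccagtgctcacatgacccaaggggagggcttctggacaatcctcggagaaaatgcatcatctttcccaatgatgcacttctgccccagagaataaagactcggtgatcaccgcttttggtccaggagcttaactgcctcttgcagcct
Ctsk (chr3:95498960-95499259, plus strand): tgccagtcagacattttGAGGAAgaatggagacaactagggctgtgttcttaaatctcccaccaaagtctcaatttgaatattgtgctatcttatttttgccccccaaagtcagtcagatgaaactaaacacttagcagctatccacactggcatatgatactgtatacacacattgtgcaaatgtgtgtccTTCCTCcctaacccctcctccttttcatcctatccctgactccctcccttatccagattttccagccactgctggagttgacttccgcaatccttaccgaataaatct

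Windows of these genes on chromosome 18, which holds Nfatc1, were left out. Outside it, no window was found for Dcstamp, Ocstamp, Atp6v0d2 or Mmp9, so these were not searched. Windows were found for 5 of the 10 genes (Tnfrsf11a, Oscar, Calcr, Ctsk and Acp5), 8 in all. They were searched on both strands for AP-1 (TGANTCA, in 7.81% of 32817 windows of this length), GAS (TTCNNNGAA, 8.29%), STAT6 (TTCNNNNGAA, 6.94%), E-box (CACGTG, 7.15%), PU.1 (GAGGAA, 28.3%) and CRE (TGACGTCA, 1.79%). The STAT6 match in Acp5 lay at -110 to -101 from the start. The PU.1 matches in Ctsk lay at -233 to -228 and at -58 to -53. The Oscar window held 2 PU.1 matches, and no other window of these genes held any of the motifs. A match describes letters only.

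Acp5 was lower in KO cells under M2. It stood at 13.8, 12.9 and 11.8 TPM in KO and at 20.0, 20.9 and 19.4 TPM in control cells, with no overlap (log2 fold change -0.61 ± 0.13, limma adjusted p = 0.00110). Under M1, values of 12.2, 10.6 and 11.5 TPM in KO and 12.4, 15.0 and 12.8 TPM in control cells were apart by a narrow gap and the difference was not called (log2 fold change -0.21 ± 0.13, limma adjusted p = 0.180). Without stimulation they overlapped, at 2.01, 1.10 and 1.04 TPM in KO and 1.48, 2.25 and 1.62 TPM in control cells (log2 fold change -0.24 ± 0.13, limma adjusted p = 0.214, or 0.00991 without KO library 1). A transcript on the opposite strand, 6530413G14Rik, overlaps Acp5 (chr9:22126727-22135711 of GRCm38, minus strand), with the same limit on reads of either strand.

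Ctsk was at most 1.68 TPM. It stood at 0.91, 1.68 and 0.77 TPM in KO and 1.01, 1.08 and 0.32 TPM in control cells under M1, and at 0.86, 0.51 and 1.24 TPM in KO and 0.98, 0.56 and 0.79 TPM in control cells under M2. Without stimulation all 3 KO libraries listed it at 0, and the control libraries held 0.24, 0.07 and 0.06 TPM. No difference between genotypes was called (limma adjusted p = 0.282 under M1, 0.829 under M2 and 0.589 without stimulation).

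Counted over the 10 genes, 3 were higher in KO cells under M1 (Dcstamp, Ocstamp and Tnfrsf11a), none was lower, 3 were not called and 4 not tested. There, 50.3% of all genes tested were called, 16.9% higher and 33.4% lower. Under M2, Dcstamp and Ocstamp were higher and Nfatc1 and Acp5 lower, where 30.9% of all genes tested were called, 12.7% higher and 18.3% lower. Without stimulation Dcstamp was higher and Tnfrsf11a lower, where 19.2% of all genes tested were called, 8.86% higher and 10.3% lower. The median log2 fold change of the 6 tested genes was 0.22 under M1, -0.0015 under M2 and -0.076 without stimulation, beside -0.063, -0.032 and 0.0046 for all genes tested. With trimmed-mean (TMM) scaling the share of called genes that were higher in KO cells was 48.3% under M1 and 55.0% under M2, where it was 33.6% and 41.0% in TPM as deposited. Under that scaling the calls between genotypes for the 6 tested genes, and the signs of their fold changes, were the same.

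**Figure D3:**
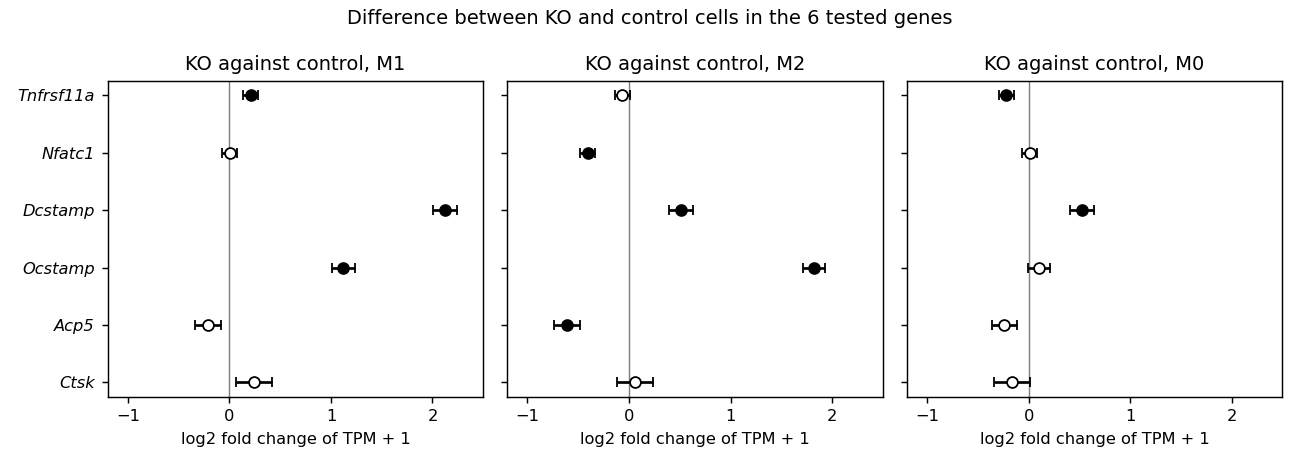
Log2 fold change of TPM + 1, KO against control, with its standard error, for the 6 tested genes under M1, M2 and without stimulation (M0). Dcstamp under M1 (2.12) and Ocstamp under M2 (1.83) lie furthest from 0, and Nfatc1 (-0.40) and Acp5 (-0.61) fall below 0 under M2.

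The response to M1 was read within each genotype. Dcstamp rose in both, to 32.3 ± 2.90 TPM in KO M1 against 5.52 ± 0.895 TPM in KO M0 cells (log2 fold change 2.36 ± 0.12, limma adjusted p = 7.59e-14), and to 6.64 ± 0.638 TPM in control M1 against 3.51 ± 0.371 TPM in control M0 cells (0.76 ± 0.12, limma adjusted p = 4.24e-06). Ocstamp fell in control cells, to 1.84 ± 0.227 TPM under M1 against 3.50 ± 0.245 TPM without stimulation (log2 fold change -0.67 ± 0.11, limma adjusted p = 9.65e-06). In KO cells it was called as higher instead, at 5.20 ± 0.830 TPM under M1 against 3.85 ± 0.698 TPM without stimulation, though the libraries overlapped (0.36 ± 0.11, limma adjusted p = 0.00481). The difference between genotypes in the M1 response was itself called for Dcstamp (1.60 ± 0.16 log2 units, limma adjusted p = 4.03e-07), Ocstamp (1.02 ± 0.15, limma adjusted p = 3.85e-05) and Tnfrsf11a (0.43 ± 0.11, limma adjusted p = 0.00357).

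Acp5 rose under M1 to 11.4 ± 0.816 TPM against 1.38 ± 0.544 TPM without stimulation in KO cells, and to 13.4 ± 1.42 TPM against 1.78 ± 0.410 TPM in control cells (log2 fold changes 2.40 and 2.38, limma adjusted p = 5.22e-13 and 6.77e-13). Nfatc1 fell under M1 to 16.0 ± 0.878 TPM against 50.2 ± 2.29 TPM without stimulation in KO cells, and to 15.9 ± 0.983 TPM against 49.8 ± 1.94 TPM in control cells (log2 fold changes -1.59 and -1.59, limma adjusted p = 3.15e-14 and 3.71e-14). Ctsk reached 1 TPM in stimulated libraries only and met the filter through them, so its calls against unstimulated cells are no independent result and its levels stand as a description. Tnfrsf11a rose in KO cells (log2 fold change 0.41 ± 0.074, limma adjusted p = 3.61e-05) and was not called in control cells (-0.019 ± 0.074, limma adjusted p = 0.811). In KO cells 5 of the 10 genes, Ctsk among them, were called as higher under M1, 1 lower and 4 not tested, where 90.3% of all genes tested were called, 32.0% higher and 58.4% lower. In control cells 3, Ctsk among them, were called as higher, 2 lower, 1 not called and 4 not tested, where 89.1% of all genes tested were called, 32.2% higher and 56.9% lower.

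The M1 responses depended on the scaling. Over all genes tested, the median log2 fold change under M1 was -0.43 in KO and -0.38 in control cells in TPM as deposited, and 0.096 in KO and 0.096 in control cells with TMM factors. Of the called genes, 53.1% were higher under M1 in KO and 53.5% in control cells with TMM factors, where 35.4% in KO and 36.1% in control cells were in TPM as deposited. With TMM factors Tnfrsf11a was called as higher under M1 in control cells as well (log2 fold change 0.51, limma adjusted p = 6.82e-07). Nfatc1 then fell by 1.0 log2 units in KO and by 1.05 in control cells. The log2 fold change of Ocstamp with TMM factors was 0.87 in KO and -0.28 in control cells (limma adjusted p = 3.46e-07 and 0.0212).

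Under M2, Ocstamp rose and Dcstamp fell in both genotypes. Ocstamp stood at 53.6 ± 3.87 TPM in KO M2 against 3.85 ± 0.698 TPM in KO M0 cells, 13.9-fold higher (log2 fold change 3.50 ± 0.11, limma adjusted p = 3.27e-16). In control cells it stood at 14.4 ± 1.60 TPM under M2 against 3.50 ± 0.245 TPM without stimulation, 4.12-fold higher (1.77 ± 0.11, limma adjusted p = 2.43e-11). The difference between these responses was 1.73 ± 0.15 log2 units (limma adjusted p = 2.27e-07) and ranked 15 from the highest of all genes tested. Dcstamp stood at 1.01 ± 0.231 TPM in KO M2 against 5.52 ± 0.895 TPM in KO M0 cells, and at 0.410 ± 0.180 TPM in control M2 against 3.51 ± 0.371 TPM in control M0 cells (log2 fold changes -1.70 and -1.68, limma adjusted p = 9.19e-11 and 1.41e-10). In these responses it ranked 69 in KO and 54 in control cells from the lowest of all genes tested, and a difference between them was not called (-0.012 ± 0.16, limma adjusted p = 0.976). At such low levels the pseudocount sets this value: mean TPM was 5.47-fold lower under M2 in KO and 8.57-fold lower in control cells, and with a pseudocount of 0.1 TPM the difference was 0.54 (limma adjusted p = 0.297).

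Acp5 rose under M2 to 12.8 ± 1.01 TPM in KO cells and to 20.1 ± 0.766 TPM in control cells (log2 fold changes 2.56 and 2.93, limma adjusted p = 1.23e-12 and 1.86e-13). The difference between genotypes in this response did not pass (-0.37 ± 0.18, limma adjusted p = 0.184). Nfatc1 fell in KO cells, to 33.8 ± 4.04 TPM under M2 (log2 fold change -0.56 ± 0.074, limma adjusted p = 1.18e-06), and was not called in control cells, at 45.0 ± 3.67 TPM under M2 (-0.15 ± 0.074, limma adjusted p = 0.0877). The fall in control cells was called, however, with only the groups compared in the fit (-0.15, limma adjusted p = 0.0427) and without control M2 library 1 (-0.21, limma adjusted p = 0.0268). The difference between responses passed (-0.42 ± 0.10, limma adjusted p = 0.0105). Tnfrsf11a rose by 0.74 log2 units in KO and by 0.59 in control cells (limma adjusted p = 2.75e-08 and 9.35e-07). Without KO M2 library 1 the difference between genotypes in this response was called for Tnfrsf11a (0.27, limma adjusted p = 0.0182), where it was not with all libraries (0.15 ± 0.11, limma adjusted p = 0.379).

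In counts, 4 of the 10 genes, Ctsk with the limit given above among them, were called as higher and 2 as lower under M2 in KO cells, where 72.9% of all genes tested were called, 29.6% higher and 43.2% lower. In control cells 4 were called as higher, again with Ctsk, 1 as lower and 1 not called, where 65.4% of all genes tested were called, 28.4% higher and 37.0% lower. Of the differences between responses, 3 of the 10 genes were called for M1, all towards KO, where 36.0% of all genes tested were called, 12.1% higher and 23.9% lower. For M2, Ocstamp was called as higher and Nfatc1 as lower, where 14.1% of all genes tested were called, 7.06% higher and 7.05% lower. The M1 and M2 comparisons of a genotype share its unstimulated libraries. With TMM factors the share of calls that were higher was 50.7% for M2 in KO cells, 48.0% for the difference in M1 responses and 62.4% for that in M2 responses, where it was 40.7%, 33.6% and 50.03% in TPM as deposited.

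**Figure D4:**
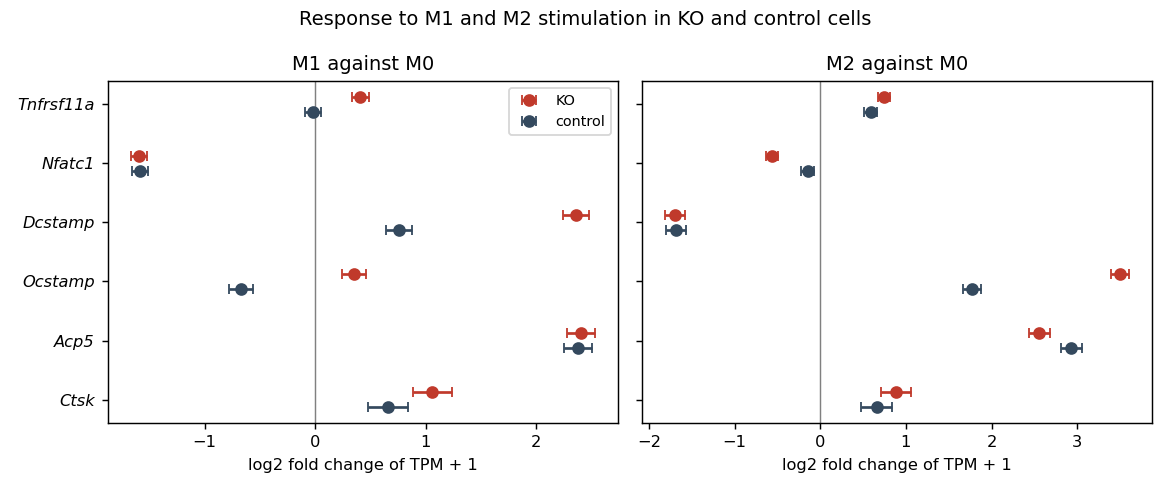
Log2 fold change of TPM + 1 with its standard error under M1 and under M2 against unstimulated cells of the same genotype, for KO (red) and control (grey). Nfatc1 under M1 lies at -1.59 in KO and -1.59 in control cells, and Ocstamp under M2 lies at 3.50 in KO and 1.77 in control cells; Dcstamp under M2 (-1.70 in KO and -1.68 in control cells) is low enough for the pseudocount to set the distance between genotypes.

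Genes with the most similar pattern over the 18 libraries were found by Pearson's r of log2(TPM + 1), as a description in which the shifts between conditions weigh most. Nearest to Ocstamp were Flt1 (r = 0.975), which encodes the VEGF receptor VEGFR1, the tetraspanin gene Cd81 (r = 0.971) and the kinase gene Stk24 (r = 0.970). Flt1 averaged 56.7 TPM in KO M2 and 11.5 TPM in control M2 cells. Nearest to Dcstamp were Srgap3 (r = 0.982), which encodes a GTPase activating protein, Gmeb2 (r = 0.973) and Serp1 (r = 0.971). Acp5 was most like the chemokine receptor gene Ccr1 (r = 0.989), then Htra4 (r = 0.983) and Clip2 (r = 0.979). Nfatc1 was most like Fgd2 (r = 0.994), Shcbp1l (r = 0.993) and Nelfcd (r = 0.992), Tnfrsf11a was most like Def6 (r = 0.977), Klf13 (r = 0.956) and Zdhhc9 (r = 0.955), and the low Ctsk was most like Ifngr2 (r = 0.912), Dmxl2 (r = 0.894) and Ift20 (r = 0.893). Between the 6 tested genes r ran from -0.65 (Nfatc1 with Dcstamp) to 0.82 (Ctsk with Acp5), and was -0.59 for Dcstamp with Ocstamp.

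The wider osteoclast pathway was read from 5 lists of 85 other genes, of which 73 were tested. These lists too were chosen with earlier results of these data known. Their shares beside those of all genes are therefore a description and no test of enrichment. Tnfsf11, the gene of RANKL, and Tnfrsf11b, that of its decoy receptor, were listed at 0 in all libraries. Itgb3, the integrin beta 3 chain of osteoclasts, Siglec15, a sialic acid receptor of osteoclasts, and the sodium/proton antiporter gene Slc9b2 reached at most 0.78, 0.29 and 0.14 TPM. Under M1, KO cells had 2 of 14 RANKL and M-CSF signalling genes higher and 5 lower (6 and 5 with TMM factors), 8 of 20 transcription factor genes higher and 6 lower (10 and 6 with TMM factors) and 2 of 11 inhibitor genes higher and none lower (5 and none with TMM factors). They had none of 14 acid secretion and resorption genes higher and 9 lower (3 and 9 with TMM factors) and 5 of 14 cell fusion genes higher and 4 lower (6 and 4 with TMM factors). Over the 73 genes, 23.3% were called as higher and 32.9% as lower in KO cells, beside 16.9% and 33.4% of all genes tested. Those shares are in TPM as deposited. With TMM factors 48.3% of all genes called were higher, where 33.6% were in TPM as deposited. The median log2 fold changes of the lists in this order were 0.033, 0.086, 0.082, -0.22 and 0.030, beside -0.063 for all genes tested.

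Jdp2, an AP-1 family gene needed for osteoclast formation in mice, stood at 83.3 ± 2.10 TPM in KO and 32.2 ± 0.682 TPM in control cells under M1 (log2 fold change 1.34 ± 0.048, limma adjusted p = 3.04e-14). Fosl1, which encodes the AP-1 subunit Fra-1, was lower at 17.2 ± 1.68 TPM in KO and 30.6 ± 1.63 TPM in control cells, and Jun at 29.1 ± 1.73 TPM in KO and 42.9 ± 1.21 TPM in control cells. The M-CSF receptor gene Csf1r, also on the macrophage marker list, was higher at 50.7 ± 2.83 TPM in KO and 32.9 ± 2.55 TPM in control cells. Irf8, which encodes an inhibitor of osteoclast formation, was higher at 835 ± 11.4 TPM in KO and 634 ± 4.82 TPM in control cells. The proton pump subunit gene Atp6v1c1 was lower at 105 ± 3.06 TPM in KO and 146 ± 0.680 TPM in control cells, as was Car2, which encodes the carbonic anhydrase that supplies protons for acid secretion, at 27.4 ± 1.55 TPM in KO and 40.9 ± 3.77 TPM in control cells. Of the fusion genes, the tetraspanin gene Cd81 was higher at 94.4 ± 4.89 TPM in KO and 58.8 ± 0.254 TPM in control cells. Sirpa, which encodes the receptor of CD47, was lower at 64.0 ± 1.22 TPM in KO and 98.8 ± 3.59 TPM in control cells.

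Under M2, KO cells had 3 of 14 RANKL and M-CSF signalling genes higher and 1 lower (4 and none with TMM factors), 5 of 20 transcription factor genes higher and 3 lower (7 and 2 with TMM factors) and 3 of 11 inhibitor genes higher and 2 lower. They had 5 of 14 acid secretion and resorption genes higher and 1 lower and 5 of 14 cell fusion genes higher and 2 lower. Over the 73 genes, 28.8% were called as higher and 12.3% as lower in KO cells, beside 12.7% and 18.3% of all genes tested. Those shares are in TPM as deposited. With TMM factors 55.0% of all genes called were higher, where 41.0% were in TPM as deposited. List medians were -0.0033, 0.041, -0.044, 0.069 and 0.053, beside -0.032 for all genes tested. Cd81 was higher at 436 ± 11.8 TPM in KO and 285 ± 10.9 TPM in control cells, and the inhibitory receptor gene Cd200r1 was lower at 17.1 ± 0.371 TPM in KO and 35.7 ± 1.5 TPM in control cells. Car2 was again lower, at 5.40 ± 0.806 TPM in KO and 10.9 ± 0.974 TPM in control cells. Plekhm1, a lysosomal trafficking gene, was higher at 68.5 ± 6.74 TPM in KO and 48.8 ± 1.76 TPM in control cells, and Fosl2, which encodes Fra-2, at 71.8 ± 8.01 TPM in KO and 53.4 ± 1.27 TPM in control cells.

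Without stimulation, KO cells had 2 of 14 RANKL and M-CSF signalling genes higher and 1 lower, none of 20 transcription factor genes higher and 5 lower (none and 3 with TMM factors) and 2 of 11 inhibitor genes higher and 2 lower (3 and 2 with TMM factors). They had 1 of 14 acid secretion and resorption genes higher and 5 lower (2 and 5 with TMM factors) and none of 14 cell fusion genes higher and 4 lower (1 and 4 with TMM factors). Over the 73 genes, 6.85% were called as higher and 23.3% as lower in KO cells, beside 8.86% and 10.3% of all genes tested. Those shares are in TPM as deposited. With TMM factors 47.9% of all genes called were higher, where 46.1% were in TPM as deposited. List medians were -0.010, -0.0064, 0.037, -0.10 and 0.022, beside 0.0046 for all genes tested. Fos, which encodes the AP-1 subunit needed to induce NFATc1, was lower at 7.83 ± 0.430 TPM in KO and 13.9 ± 1.12 TPM in control cells (log2 fold change -0.75 ± 0.10, limma adjusted p = 3.41e-05). Adam8, a metalloprotease gene linked to fusion, was lower at 22.3 ± 1.49 TPM in KO and 32.3 ± 1.07 TPM in control cells, and Lilrb4a, an inhibitory receptor gene, at 139 ± 0.646 TPM in KO and 191 ± 3.07 TPM in control cells.

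**Figure D5:**
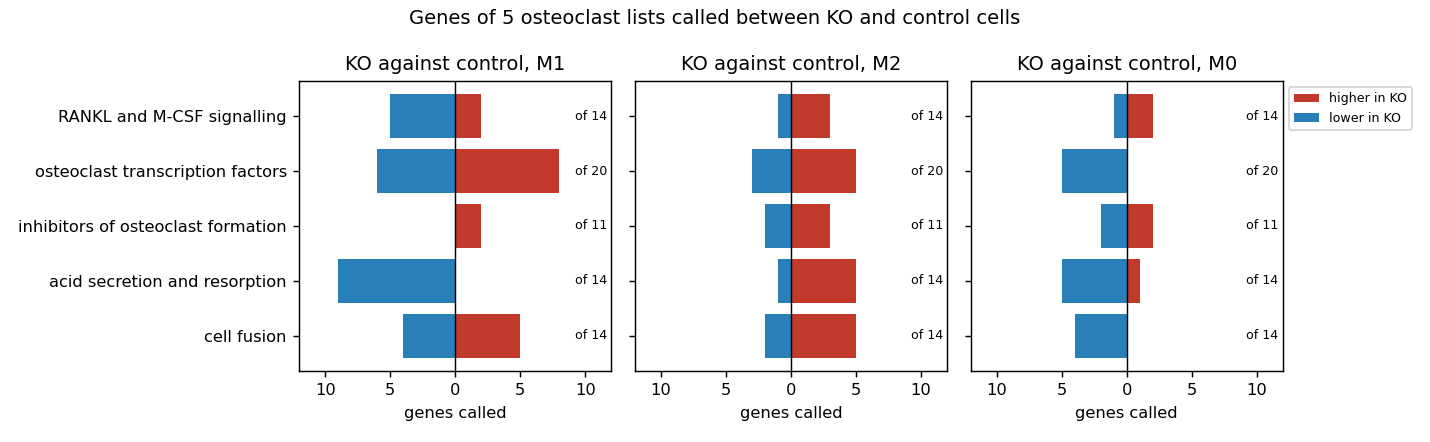
Number of genes of each of the 5 lists called at a limma adjusted p below 0.05 as higher or lower in KO than in control cells, under M1, M2 and without stimulation (M0), in TPM as deposited. Of 14 acid secretion genes, 9 were lower and none higher under M1 (all genes tested: 33.4% lower and 16.9% higher), and 5 were higher and 1 lower under M2 (all genes: 12.7% higher and 18.3% lower). With TMM factors the M1 split was 3 higher and 9 lower, where 48.3% of all genes called were higher (33.6% in TPM as deposited).

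Under M1, Csf1, which encodes M-CSF, rose to 48.4 ± 3.31 TPM against 0.827 ± 0.191 TPM without stimulation in KO cells, and to 41.5 ± 2.02 TPM against 0.650 ± 0.199 TPM in control cells. Its receptor gene Csf1r fell to 50.7 ± 2.83 TPM against 571 ± 15.0 TPM in KO cells, and to 32.9 ± 2.55 TPM against 443 ± 9.44 TPM in control cells. Trem2, a receptor that signals through DAP12 in osteoclast precursors, fell to 1.55 ± 0.460 TPM against 272 ± 13.9 TPM in KO cells, and to 3.93 ± 0.469 TPM against 303 ± 3.96 TPM in control cells. Under M2, Trem2 rose instead, to 599 ± 16.1 TPM in KO and 626 ± 8.20 TPM in control cells.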

How the data were processed

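Poly(A) RNA of 18 RAW264.7 libraries was analysed. The authors deposited TPM for each gene symbol, rounded to 2 decimals, with equal library totals. The submitters' processing notes name Trim Galore and the mm10 build; the sources used here give no aligner, quantifier or annotation. Depth is unknown, so no counting interval was computed. Sample titles gave groups and replicate numbers, and library names in the labels tied columns to samples. The 10 genes and all gene lists were chosen with earlier results of these data known.

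Tests were two-sided and used limma 3.58.1 (R 4.3.3), with a mean-variance trend and robust moderation, on log2(TPM + 1), which understates changes of low genes. One model held the 6 group means over all 18 libraries (12 residual degrees of freedom), after a filter of 1 TPM in at least 3 libraries. Of the 5 pathway lists, up to 3 called genes per list and comparison were eligible to be named, those with the largest change whose higher group averaged 5 TPM or more and whose libraries did not overlap; not every eligible gene is reported here. Alternatives were TMM factors (30% of log ratios and 5% of levels trimmed) and median-ratio factors on the TPM scale, no variance trend, no filter, a 5 TPM filter, a pseudocount of 0.1 TPM, only the groups compared, a replicate block and each library left out; a fit without control M2 library 2 and KO M0 library 3 was added after seeing the data. The fit was run on simulated data with independent normal noise around a mean for each gene. Such data hold no technical replicates and no shift in scaling, so they test neither.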

Additional observations from a re-analysis of the deposited data

Results flagged for a closer look

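Of the 6 tested genes, 4 responded to a stimulus differently in KO than in control cells by a test of the difference itself, which called 3 of them for M1, where 36.0% of all genes tested were called, and 2 for M2, where 14.1% were. Under M1, Dcstamp rose by 1.60 log2 units more in KO than in control cells (± 0.16 SE, limma adjusted p = 4.03e-07). The M1 responses of Ocstamp went opposite ways, a fall in control cells and a rise, with overlapping libraries, in KO cells. They differed by 1.02 (limma adjusted p = 3.85e-05). The M1 responses of Tnfrsf11a differed by 0.43 (limma adjusted p = 0.00357). Under M2, the rise of Ocstamp was 1.73 log2 units larger in KO than in control cells (limma adjusted p = 2.27e-07), and the response of Nfatc1 differed by -0.42 (limma adjusted p = 0.0105). All 5 calls held with TMM and with median-ratio factors.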

How the results depend on the processing

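Of 861 alternative values of the 6 tested genes, 808 kept direction and side of the threshold. With the sign kept, 13 lost a call and 5 gained one. A further 35 changed sign, counted so whether or not the call changed too. The cause was not tested. Unstimulated, the number of the 10 genes called between genotypes was 1 in place of 2 with no variance trend, with no filter, with a pseudocount of 0.1 TPM and without the 2 libraries that held traces together; leaving out 1 library gave 1 to 2, and 2 to 3 under M1. Tnfrsf11a changed sign to 0.51 (TMM) and 0.43 (median ratios) for M1 in control cells and was then called (limma adjusted p = 6.82e-07 and 8.14e-06). Nfatc1, in the difference of M1 responses, changed sign to 0.052 and 0.055. With a pseudocount of 0.1 TPM the difference of M2 responses of Dcstamp was 0.54, and the unstimulated difference of Dcstamp between genotypes was 0.63 and no longer called (limma adjusted p = 0.0521). Without the 2 libraries together, the log2 difference of Ocstamp between genotypes unstimulated was -0.012, of Ctsk under M2 -0.028, of Acp5 in M1 responses -0.072 and of Dcstamp in M2 responses 0.12. Leaving out 1 library each, values that changed sign and were not called ranged, between genotypes unstimulated, from -0.017 to 0.047 (Nfatc1) and -0.012 to 0.19 (Ocstamp); under M1, from -0.038 to 0.050 (Nfatc1); and under M2, from -0.14 to 0.053 (Tnfrsf11a) and -0.077 to 0.21 (Ctsk). They ranged from -0.050 to 0.013 for Tnfrsf11a under M1 in control cells, from -0.049 to 0.038 (Nfatc1) and -0.088 to 0.21 (Acp5) in M1 responses and from -0.12 to 0.090 for Dcstamp in M2 responses. Deviations of same-numbered samples correlated at -0.16 to 0.15 (median 0.018) over 45 pairs. In 40 of 90 cases a sample correlated best with its own number, out of 3 numbers. These values do not settle whether replicate numbers pair the samples. With the replicate block the numbers of genes called were 3, 4 and 2 between genotypes under M1, M2 and unstimulated, the same as without it. No depth was given, so what depth limits is unknown; values below 1 TPM, deposited with 2 decimals, include every Mmp9 value and most values of Ctsk and of Dcstamp under M2.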

Other observations

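Neighbours of the fusion genes within 500 kb, of any gene type, were looked up after seeing the data. Near Dcstamp, 3 neighbours were tested (AU022793, Dpys and Lrp12), and under M1 their log2 fold changes between KO and control cells ran from -0.42 (AU022793) to 1.17 (Dpys, a pyrimidine catabolism gene), with 1 called as higher and 1 as lower, where 16.9% and 33.4% of all genes tested were. Under M2 they ran from -0.18 to 0.074, and unstimulated from 0.14 to 0.17, with none called. Near Ocstamp, 9 neighbours were tested. Mmp9 also lies in that window and, below the filter, was not among them. Under M2 their values ran from -0.22 (Pcif1) to 0.52 (Slc13a3), with 3 called as higher and 1 as lower (all genes tested: 12.7% and 18.3%), and under M1 from -0.31 (Elmo2) to 0.21 (Trp53rka), with 1 called as higher and 4 as lower. Unstimulated they ran from -0.11 to 0.27, with 1 called as higher and none as lower, where 8.86% and 10.3% of all genes tested were.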
